A study of Mus musculus with 4 samples.

Results

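Claudins are membrane proteins of the tight junction, the belt that closes the space between neighbouring epithelial cells. Some of them tighten this seal and others form pores through it, so the set that a cell makes helps to decide which ions and how much water pass between cells. The claudins described here are Cldn18, Cldn3, Cldn4, Cldn7, Cldn2, Cldn23 and Cldn12, 7 genes chosen by name from the 17712 genes of a single-cell RNA-seq table of mouse stomach epithelium, which holds 14 genes named Cldn plus a number. In the stomach, where the epithelium must hold back acid, Cldn18 is the best known claudin. Cldn3 and Cldn4 are counted among the sealing claudins, Cldn7 is a binding partner of the adhesion protein Epcam, Cldn2 forms a pore for small cations and water, and Cldn23 and Cldn12 are less studied.

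The cells came from the stomach of female Rosa26iH2b-GFP mice, 14 weeks old. In these mice a doxycycline-driven gene for the fluorescent histone H2b-GFP and the Tet-on 3G transactivator that switches it on were both inserted at the Rosa26 locus. The mice ate doxycycline for 4 weeks and then a plain diet for a 6-week chase, during which dividing cells dilute the label, and both groups share this history. Viable cells without CD45 or CD31, the markers of blood and endothelial cells, were sorted either for Epcam alone (Ep+) or for Epcam with retained GFP (GFP+). Each sort gave 2 libraries, and cells of 2 mice were combined before loading. No source used here says that the libraries of a sort came from different animals, so the p-values measure only the spread between these libraries.

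The table held 4449 cells, 1642 and 1896 in the Ep+ libraries and 467 and 444 in the GFP+ libraries. A library held 35571141 to 79455225 UMIs (unique molecular identifiers, each marking 1 captured RNA molecule), with a median per cell of 31735 to 45119 in 3 libraries and 104840 in the second GFP+ library. Levels are given as CPM, the UMIs of a gene scaled to 1000000 UMIs of all cells of a deposited cluster in a library, counting a library where it holds 20 or more such cells. Because the kit captures the 3′ end, levels of different claudins are set side by side without a length correction. How well each transcript is captured and mapped can still differ between genes. The clusters carry only numbers, and are named here from marker genes: neck-like 0, chief-like 1 and 5, pit-like 2, isthmus-like 3 and 4, endocrine-like 6 and 7, parietal-like 8 and tuft-like 9. Of these markers, 5 of 5 were highest in the pit-like cluster, 4 of 4 in the parietal-like, 5 of 5 in the tuft-like and 3 of 4 in the neck-like cluster. The chief, isthmus and endocrine markers had their highest levels within the pair of clusters named for them. Scrublet, a doublet caller, marked 74 cells (1.66%), and 4 cell barcodes occurred in more than 1 library. Since the clusters were made from the expression of these cells, levels between clusters are descriptions with no test.

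The 7 claudins differed by orders of magnitude in abundance. They held 144479 UMIs together, 0.0612% of all UMIs, and Cldn18 alone held 97.1% of these. Cldn18 gave 140303 UMIs and was seen in 4408 cells (99.1%). Cldn12 gave 1344 UMIs in 1093 cells (24.6%), Cldn7 1272 UMIs in 382 cells (8.59%), Cldn23 878 UMIs in 537 cells (12.1%) and Cldn3 472 UMIs in 230 cells (5.17%). Cldn2 and Cldn4 were rare, with 164 UMIs in 26 cells and 46 UMIs in 24 cells. Cldn7 thus nearly matched Cldn12 in UMIs while it was seen in far fewer cells.

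**Figure D1:**
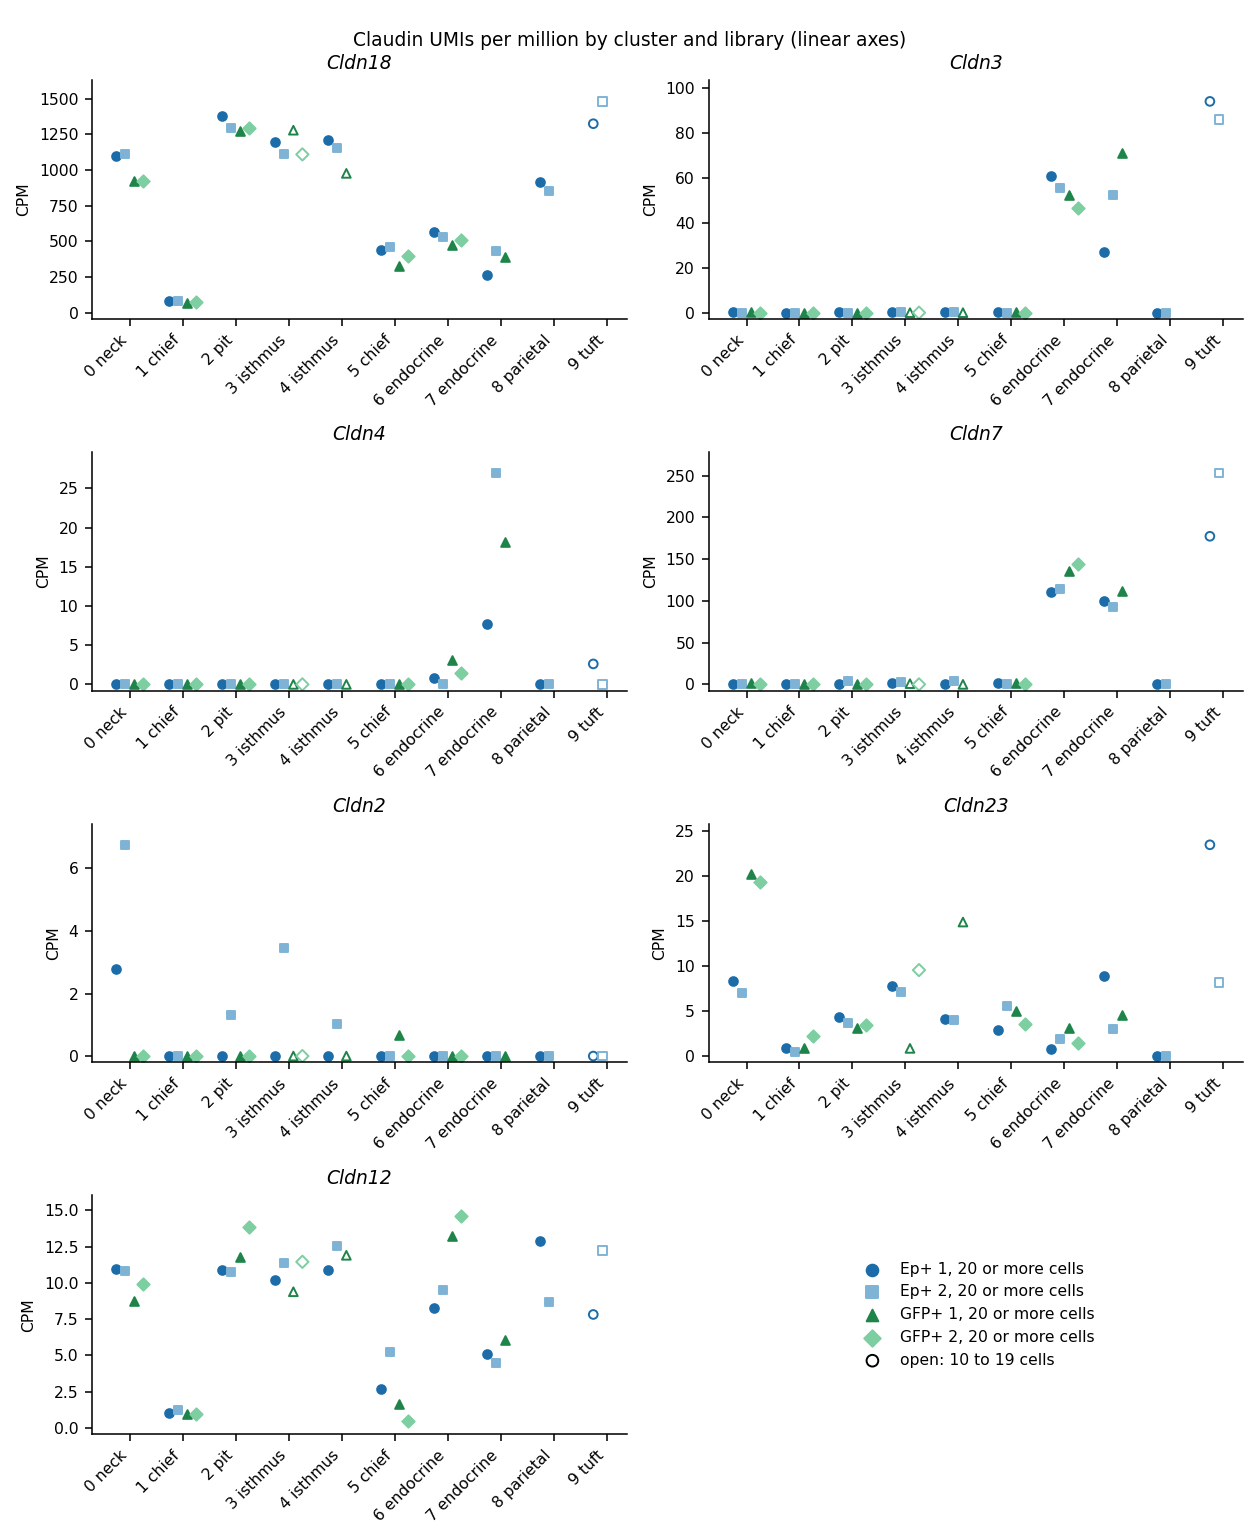
Level of each of the 7 claudins by deposited cluster, 1 panel a gene, in CPM on linear axes with a scale of their own. Each point is a library: filled points hold 20 or more cells of the cluster and open points 10 to 19. Cldn18 was present in every cluster. Over filled points, its mean ran from 75.4 CPM in chief-like cluster 1 to 1311 CPM in pit-like cells. Cldn3 and Cldn7 were high in both endocrine-like clusters and Cldn4 in cluster 7. The open points of tuft-like cells stood at 1324 and 1481 CPM for Cldn18. They stood at 177 and 253 CPM for Cldn7 and at 93.8 and 85.7 CPM for Cldn3.

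Cldn18 lies at chr9:99689461-99717267 on the minus strand of GRCm38 (mm10), and the GENCODE annotation gives it 4 transcripts. They begin at an upstream start and at a principal start 7204 bases further on, which 3′ counts cannot tell apart, so every Cldn18 value sums both. The gene Gm16004 overlaps it on the plus strand. The windows around both starts, from 250 bases before to 50 bases after, are shown because the gene carries nearly all claudin UMIs of this tissue. They are RefSeq sequence (GRCm38.p6), written 5′ to 3′ on the gene's strand, at chr9:99717218-99717517 and chr9:99710014-99710313.
Cldn18, upstream start: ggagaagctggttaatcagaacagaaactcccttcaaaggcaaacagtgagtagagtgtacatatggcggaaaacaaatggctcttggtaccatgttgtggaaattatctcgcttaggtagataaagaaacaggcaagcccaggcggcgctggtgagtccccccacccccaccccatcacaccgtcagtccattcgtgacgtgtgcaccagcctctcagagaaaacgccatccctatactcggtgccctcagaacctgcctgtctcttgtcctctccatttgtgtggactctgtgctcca
Cldn18, principal start: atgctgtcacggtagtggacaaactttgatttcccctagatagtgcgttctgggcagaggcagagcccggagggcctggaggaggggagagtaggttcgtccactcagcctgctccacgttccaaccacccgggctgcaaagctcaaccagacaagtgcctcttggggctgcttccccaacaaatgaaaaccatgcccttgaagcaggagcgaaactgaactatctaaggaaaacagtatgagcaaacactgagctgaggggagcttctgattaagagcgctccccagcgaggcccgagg
Matches would stand in capitals. Both strands were searched. The letters TATAAA, of the box that positions many start sites, occurred in 13.6% of the 32851 windows of all genes. The GC box, GGGCGG, occurred in 35.7% of them. The E-box searched was CACCTG, found in 20.2%. The AP-1 site, TGACTCA, was found in 5.20%. Neither Cldn18 window held any of these letters.

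Cldn18 was highest in pit-like cells, the mucous cells that face the lumen, where the Ep+ libraries had 1381 and 1293 CPM and the GFP+ ones 1274 and 1294 CPM. Isthmus-like cells, which carry proliferation genes, had 1208 and 1153 CPM in cluster 4 and 1197 and 1113 CPM in cluster 3. Neck-like cells had 1099, 1113, 926 and 925 CPM. Every pit-like library stood above every isthmus-like one with 20 cells, whereas the ranges of clusters 4 and 3, and of cluster 3 and the neck-like cells, overlapped. Parietal-like cells, the source of acid, followed with 916 and 854 CPM. Endocrine-like cluster 6 had 567, 532, 473 and 512 CPM and cluster 7 had 263, 436 and 392 CPM. Chief-like cluster 5 had 440, 461, 328 and 397 CPM, overlapping cluster 7.

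Chief-like cluster 1 was lowest on the CPM scale, with 79.0, 80.3, 66.4 and 76.1 CPM, a mean of 75.4 ± 6.25 (SD, n = 4 libraries). In these cells Clps, Pla2g1b and Pgc, which encode secreted digestive proteins, took 82.3% of all UMIs, and 56.5% in cluster 5, which lowers the CPM of every other gene. With these 3 genes out of the totals, the Cldn18 level was 426 CPM for cluster 1, 948 CPM for cluster 5 and 1325 CPM for pit-like cells. Cluster 1 was still lowest there, but with TMM factors (edgeR's scaling of totals, fitted over all sums) it reached 351 CPM and endocrine-like cluster 6, at 289 CPM, became the lowest. As UMIs per cell, cluster 1 had 9.65 ± 1.57 (SD, n = 4) and endocrine-like cluster 7 had 9.74, so these did not differ beyond their spread, while pit-like cells had 67.9. By their mean, pit-like cells were at the top on all 4 scales, while chief-like cells were not at the bottom on all. Per cell, however, the pit-like range overlapped that of isthmus-like cluster 4. In the Ep+ libraries pit-like cells had 55.1 and 46.2 UMIs per cell against 56.9 and 51.6 in cluster 4. The GFP+ libraries had 87.5 and 82.9 in pit-like cells, and held fewer than 20 cells of cluster 4. In cluster 1, 97.9% of cells held a Cldn18 UMI, with a median of 9 UMIs per cell.

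Of the other claudins of the table, Cldn8 was the most abundant, with 1026 UMIs in 736 cells (16.5%), more UMIs than Cldn23, Cldn3, Cldn2 or Cldn4. On the CPM scale its highest mean was 9.47 in endocrine-like cluster 6, but with the 3 chief-cell genes out of the totals chief-like cluster 1 was highest, at 31.2 CPM against 9.75 CPM, and with TMM factors it had 25.7 CPM against 5.27 CPM. Cldn22 had a mean of 9.63 CPM in neck-like cells, Cldn6 8.18 CPM in endocrine-like cluster 7 and Cldn34c1 6.79 CPM in cluster 6. Cldn10, Cldn9 and Cldn15 did not reach 5 CPM in any cluster. Of Cldn22, 19.9 CPM in the second GFP+ library stood against 4.26 to 9.47 CPM in the other 3 libraries.

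Cldn3 and Cldn7 were high in both endocrine-like clusters and in tuft-like cells, and Cldn4 was high in endocrine-like cluster 7. Cldn3 (chr5:134986214-134987472, plus strand) and Cldn4 (chr5:134945119-134946934, minus strand) begin 39280 bases apart, with 0 protein-coding genes between them, and point away from each other. Cldn7 is on another chromosome (chr11:69964779-69967885, plus strand). Wbscr25 overlaps Cldn3 on the opposite strand, and whether strand was used in counting is not given in the sources used here. Wbscr25 held 0 UMIs in the endocrine-like clusters. The start windows of the 3 genes are shown because these are the claudins with the clearest limits to some cell types, again from RefSeq on each gene's strand, with matches to the same 4 motifs in capitals. They lie at chr5:134985964-134986263, chr5:134946885-134947184 and chr11:69965171-69965470.
Cldn3: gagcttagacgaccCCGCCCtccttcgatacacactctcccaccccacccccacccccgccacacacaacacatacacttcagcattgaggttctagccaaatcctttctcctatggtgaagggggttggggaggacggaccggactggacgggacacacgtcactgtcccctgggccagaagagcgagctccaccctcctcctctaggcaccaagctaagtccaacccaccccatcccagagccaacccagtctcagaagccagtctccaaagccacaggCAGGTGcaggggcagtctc
Cldn4: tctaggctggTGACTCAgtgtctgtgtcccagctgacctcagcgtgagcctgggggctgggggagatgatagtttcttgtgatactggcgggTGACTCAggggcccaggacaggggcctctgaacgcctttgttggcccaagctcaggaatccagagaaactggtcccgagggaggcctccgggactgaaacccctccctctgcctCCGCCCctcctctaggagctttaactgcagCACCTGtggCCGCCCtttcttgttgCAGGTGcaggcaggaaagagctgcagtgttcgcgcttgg
Cldn7: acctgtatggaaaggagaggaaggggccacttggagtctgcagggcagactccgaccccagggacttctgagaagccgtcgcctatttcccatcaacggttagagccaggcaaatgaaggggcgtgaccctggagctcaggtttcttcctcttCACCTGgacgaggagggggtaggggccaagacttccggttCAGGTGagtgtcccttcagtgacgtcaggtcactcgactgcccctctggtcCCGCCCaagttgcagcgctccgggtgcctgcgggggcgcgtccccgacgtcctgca
All 3 windows held the GC box and the E-box, and Cldn4 also held the AP-1 letters, as 2 of its 6 matches. A second Cldn7 window, around an upstream start, held no match. GC content was 60.7% for Cldn3, 61.0% for Cldn4 and 62.3% for Cldn7, against a median of 52.7% over all windows, and the upstream Cldn7 window had 52%. These matches are letters in a window and say nothing of what binds there.

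Cldn7 had the highest mean of the 3 in both endocrine-like clusters. In cluster 6 the Ep+ libraries had 110 and 114 CPM and the GFP+ libraries 135 and 144 CPM, a mean of 126 ± 16.4 (SD, n = 4). In cluster 7 it had 99.4, 92.8 and 112 CPM, a mean of 101 ± 9.72 (n = 3), and the ranges overlapped. With the 3 chief-cell genes out of the totals, or with TMM factors, cluster 7 stood above cluster 6 instead. Outside the endocrine-like and tuft-like clusters, Cldn7 reached at most 4.39 CPM in a library, and 0 UMIs were seen in the 51 parietal-like cells. Many of these scattered UMIs sat in few cells: in isthmus-like cluster 3 of the first Ep+ library, 19 of 20 UMIs were in 1 cell, without which the level was 0.107 CPM in place of 2.12 CPM.

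Cldn3 had 60.7, 55.3, 52.2 and 46.7 CPM in cluster 6, a mean of 53.7 ± 5.87 (SD, n = 4). In cluster 7 it had 26.8, 52.4 and 71.1 CPM, a mean of 50.1 ± 22.2 (n = 3). The clusters overlapped, and their order turned when the 3 chief-cell genes were left out, with TMM factors and per cell. In all other clusters with 20 cells in a library, Cldn3 stayed at or under 0.42 CPM, and it was at 0 in parietal-like cells.

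Tuft-like cells, the chemosensory cells of the epithelium, were too few for the level rule, with 18 and 13 cells in the Ep+ libraries and 1 in the GFP+ libraries. In those 2 Ep+ libraries Cldn7 had 177 and 253 CPM and Cldn3 had 93.8 and 85.7 CPM, above every endocrine-like library with 20 cells. For Cldn3, 13 of 36 and 8 of 21 UMIs were in 1 cell of each library. Without these cells Cldn3 stood at 63.5 and 57.0 CPM, under the 71.1 CPM of cluster 7 in the first GFP+ library. Cldn7 stood at 155 and 230 CPM without its top cell in each library. The second GFP+ library, with 8 cells of endocrine-like cluster 7, had 181 CPM of Cldn7 and 99.8 CPM of Cldn3 there, so the tuft-like values are not apart from all endocrine-like sums of few cells. Cldn18 had 1324 and 1481 CPM in the tuft-like cells of the Ep+ libraries. With sums of at least 10 cells allowed, tuft-like cells were the highest cluster for Cldn18, Cldn3, Cldn7 and Cldn23. For Cldn23 this rested on 9 and 2 UMIs in the Ep+ libraries.

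As shares of cells, unthinned, a Cldn7 UMI was found in 85.3% of cells of cluster 6, 76.1% of cluster 7 and 93.8% of tuft-like cells, and a Cldn3 UMI in 67.0%, 58.0% and 43.8%. Deeper cells show more genes, so each cell was also thinned to 16880 UMIs, which drops shallower cells: 85 of 224 in cluster 6, 53 of 88 in cluster 7, 12 of 32 tuft-like cells, 149 of 1121 neck-like cells and 1 of 51 parietal-like cells. The Cldn7 share was then 84.9% in cluster 6 and 65.7% in cluster 7, against 0.823% in neck-like cells and 0 of 50 in parietal-like cells, which allows up to 6% of cells with a UMI and does not limit cells whose RNA was not captured. Cldn3 was then at 59.7% in cluster 6, 34.3% in cluster 7 and 35.0% in tuft-like cells. Before thinning, the cells kept had median depths of 26311 UMIs in cluster 6 and 38000.5 in parietal-like cells.

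**Figure D2:**
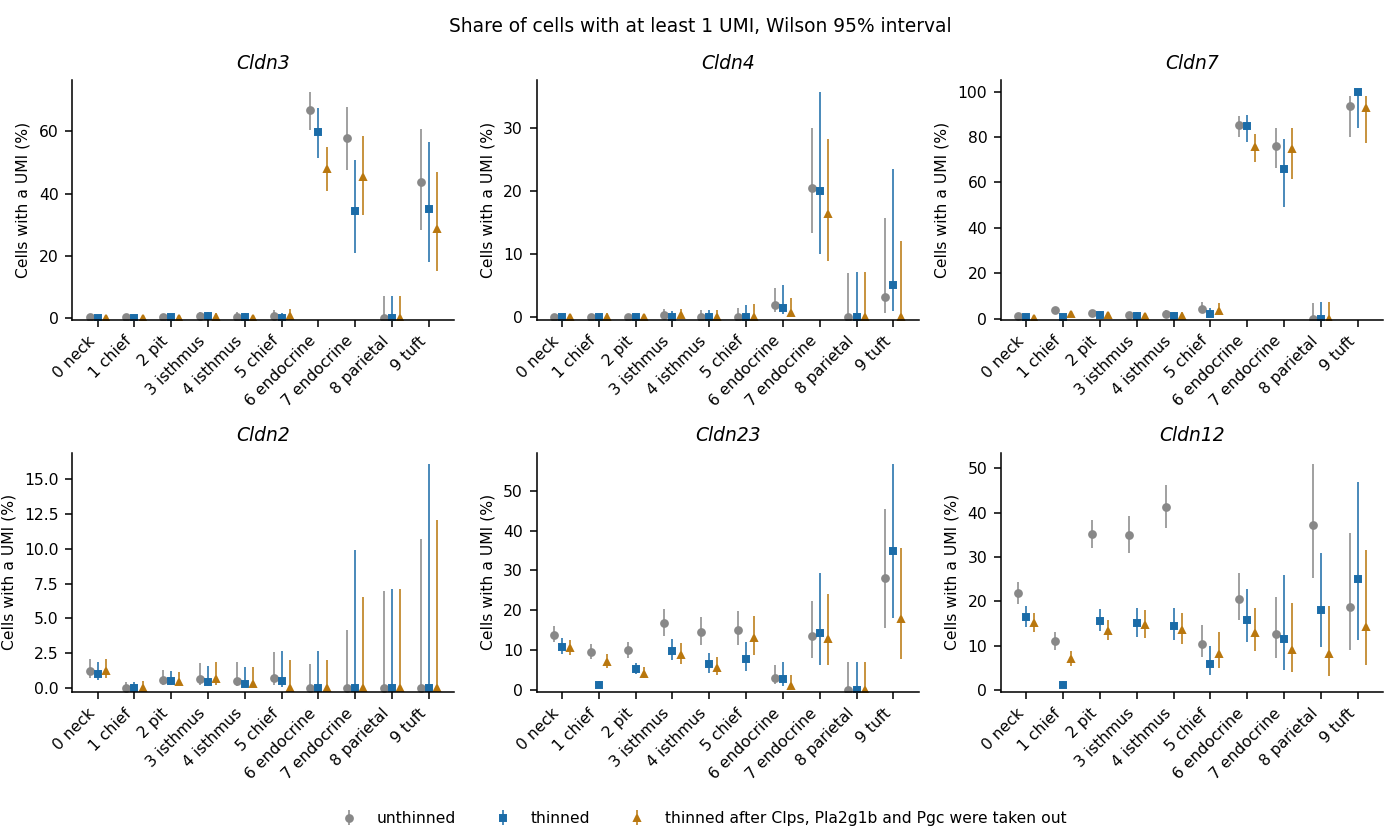
Share of cells with at least 1 UMI, in percent, for the 6 claudins other than Cldn18 in each cluster, with 95% Wilson intervals that cover counting error only: unthinned, thinned to 16880 UMIs per cell, and thinned to 12773 UMIs after Clps, Pla2g1b and Pgc were taken out. Thinned, Cldn7 stood at 84.9% in endocrine-like cluster 6 and 0.823% in neck-like cells.

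Within cluster 6, 135 of 224 cells held UMIs of both Cldn3 and Cldn7 and 18 held neither. Cldn7 was found in 90% of the cells with Cldn3 and in 85.3% of all cells of the cluster. In cluster 7, 42 of 88 cells held both. Most endocrine-like cells with Cldn3 therefore also held Cldn7, which by its level would be seen in most cells in any case.

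Cldn4 separated the endocrine-like clusters. It had 7.65, 26.9 and 18.2 CPM in cluster 7, a mean of 17.6 ± 9.66 (SD, n = 3), against 0.75, 0, 3.15 and 1.46 CPM in cluster 6. No library of one cluster overlapped the other. It held 1 UMI in isthmus-like cluster 3 and was seen in 1 tuft-like cell, and in neck-like, chief-like, pit-like, parietal-like and isthmus-like cluster 4 cells it held 0 UMIs. All 18 but 1 of the cluster 7 cells with Cldn4 held Cldn7 too.

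The endocrine-like cells were grouped by the hormone or amine gene with the most UMIs among Ghrl (ghrelin), Sst (somatostatin), Gast (gastrin) and Hdc (the histamine-forming enzyme). This gave 200 Ghrl, 55 Hdc, 39 Sst and 7 Gast cells, and 11 cells with none of these genes. In some cells the lead was narrow, under 2 UMIs for each 1 of the second gene (taken as at least 1). This was so in 20 of 166 Ghrl cells of cluster 6 and 14 of 34 of cluster 7. For Hdc cells it was 12 of 51 and 2 of 4, for Sst cells 2 of 7 and 1 of 32. Among the 7 Gast cells it was 0. Cldn4 was seen in 6 of 7 Gast cells (85.7%, 95% Wilson interval 48.7% to 97.4%, 20 UMIs) and 10 of 39 Sst cells (25.6%, 14.6% to 41.1%, 16 UMIs). It was seen in 4 of 200 Ghrl cells (2.00%, 0.780% to 5.03%) and 1 of 55 Hdc cells (1.82%, 0.322% to 9.61%). These intervals cover counting error only. Median depth ran the other way, from 20877 UMIs per cell in Ghrl cells and 16160 in Hdc cells to 14167 in Sst and 11069 in Gast cells. Pooled over cells, Cldn4 stood at 159 CPM in Gast cells, 19.4 CPM in Sst cells, 1.14 CPM in Ghrl cells and 0.969 CPM in Hdc cells.

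The Gast cells were few, and 5 of the 7 came from the second Ep+ library, with 17 of their 20 Cldn4 UMIs. The Sst cells differed by library: Cldn4 was seen in 4 of 11 and 0 of 17 in the Ep+ libraries and in 5 of 8 and 1 of 3 in the GFP+ libraries. Hence the Sst value rested on 3 of 4 libraries and the Gast value mostly on 1.

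Cldn3 and Cldn7 were spread over all 4 kinds of endocrine-like cell. Cldn3 stood at 48.5 CPM in Ghrl cells, 49.4 CPM in Hdc cells, 65.4 CPM in Sst cells and 135 CPM in Gast cells. Cldn7 stood at 119, 109, 83.5 and 151 CPM in the same order. Unlike Cldn4, then, both were present at 48.5 CPM or more in every kind.

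**Figure D3:**
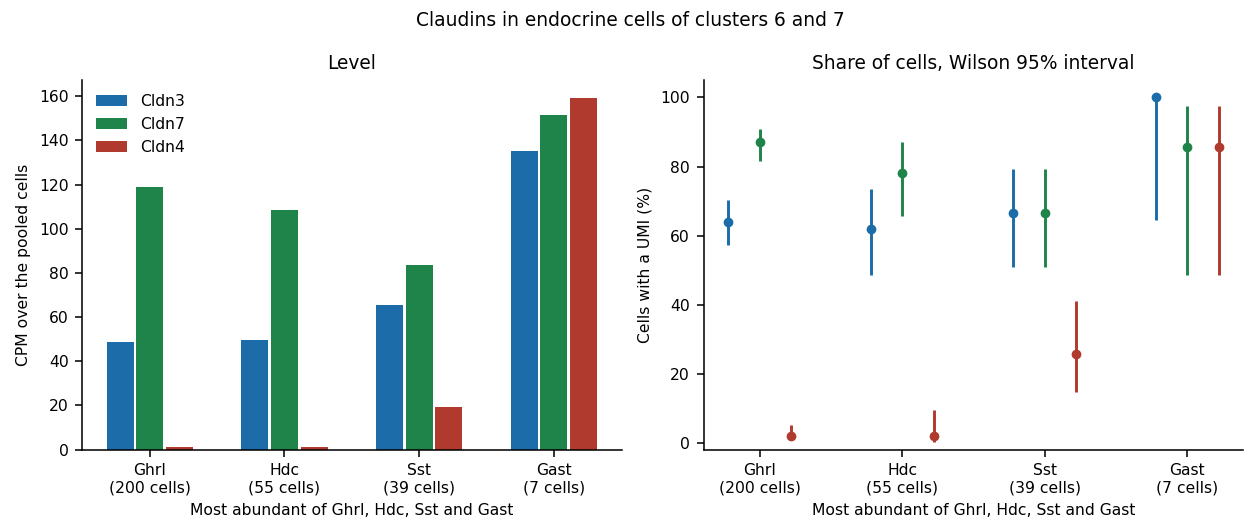
Cldn3, Cldn7 and Cldn4 in the cells of endocrine-like clusters 6 and 7 grouped by their leading gene. Bars on the left give the CPM over the pooled cells, and points on the right give the share of cells with a UMI in percent, with 95% Wilson intervals that cover counting error only. Cldn4 was seen in 6 of 7 Gast cells and 10 of 39 Sst cells, and in 4 of 200 Ghrl cells.

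Cluster 7 held other cells' markers too. The summed level of the 7 chief markers was 301218 CPM there against 31750 CPM in cluster 6, and that of Cd74, an antigen presentation gene and the 1 measured gene of the immune list, was 109 CPM against 3.09 CPM. The 4 measured genes of a fibroblast and muscle list were all highest there, with a summed level of 227 CPM, of which Acta2 gave 143 CPM, against 1.93 CPM in cluster 6. Scrublet marked 5, 2 and 2 cells in the 3 libraries of cluster 7 with levels. Without them only 1 of its libraries kept 20 cells, where Cldn4 stood at 38.2 CPM. The part of these in the claudin levels was not tested.

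Cldn23 (chr8:35824712-35826559, minus strand) had its highest mean in neck-like cells, the mucous cells deeper in the gland, where the Ep+ libraries had 8.28 and 7.04 CPM and the GFP+ libraries 20.2 and 19.4 CPM. Isthmus-like cluster 3 had 7.75 and 7.14 CPM, cluster 4 had 4.07 and 4.01 CPM, and pit-like cells had 4.35, 3.72, 3.12 and 3.47 CPM. Endocrine-like cluster 7 had 8.92, 2.99 and 4.54 CPM, and 9 UMIs in the 8 cells of the second GFP+ library (81.7 CPM). The Ep+ neck-like libraries alone thus did not stand above clusters 3 and 7. Chief-like cluster 5 had 2.93 to 5.55 CPM and cluster 1 had 0.483 to 2.21 CPM. Parietal-like cells had 0 UMIs in 51 cells. The mean of 13.7 ± 7.03 (SD, n = 4) in neck-like cells overlapped that of cluster 3, since its spread was mostly the gap between the sorts. With the 3 chief-cell genes out of the totals, cluster 5 reached 9.84 CPM and cluster 1 only 6.38. Likewise, after thinning to 16880 UMIs the share of cells with Cldn23 was 10.9% in neck-like cells, 7.69% in cluster 5 and 1.36% in cluster 1, but thinned to 12773 UMIs without those genes it was 10.5%, 13.0% and 7.12%.

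Cldn12 (chr5:5489537-5514958, minus strand) was low, and on the CPM scale it was similar in all but the chief-like clusters and endocrine-like cluster 7. It had 10.9, 10.8, 11.8 and 13.9 CPM in pit-like cells, 10.98, 10.8, 8.78 and 9.93 CPM in neck-like cells and 8.25, 9.53, 13.2 and 14.6 CPM in endocrine-like cluster 6. Isthmus-like and parietal-like libraries lay between 8.69 and 12.9 CPM. None of these clusters differed from its neighbour in order beyond the spread of its libraries. Endocrine-like cluster 7 was lower, at 4.49 to 6.05 CPM, as were chief-like cluster 5, at 0.44 to 5.26 CPM, and cluster 1, at 0.92 to 1.21 CPM. With the 3 chief-cell genes out of the totals, the levels were 5.74 and 5.64 CPM for clusters 1 and 5, and 12.2 CPM for neck-like cells. As UMIs per cell, the means were 0.630 in pit-like cells, 0.270 in neck-like cells and 0.129 in cluster 1.

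Cldn2 (chrX:139800828-139811386, plus strand) was confined to few cells. In neck-like cells it was seen in 5 of 441 and 9 of 496 cells of the Ep+ libraries, with 30 and 72 UMIs and up to 22 UMIs in 1 cell. It was seen in 0 of 116 and 0 of 68 neck-like cells of the GFP+ libraries. Over libraries this is 14 of 937 Ep+ cells (1.49%, 95% Wilson interval 0.892% to 2.49%) and 0 of 184 GFP+ cells, which allows a share of cells with a UMI of up to 1.63%. These limits cover counting error over pooled cells only, and say nothing of cells whose Cldn2 RNA was not captured. Elsewhere, the second Ep+ library held it in 5 pit-like cells, 3 cells of isthmus-like cluster 3 and 2 of cluster 4, and the first GFP+ library in 2 cells of chief-like cluster 5. In cluster 3, 27 of 31 UMIs were in 1 cell. None of the cells with Cldn2 was marked as a doublet, and 0 UMIs were seen in chief-like cluster 1, endocrine-like, parietal-like and tuft-like cells.

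The 14 neck-like cells with Cldn2 differed in other genes from the remaining Ep+ neck-like cells, and are described here with no test since they were chosen for a measured gene. Cftr, the chloride channel, stood at 280 CPM in them against 2.19 CPM in the others. Kcne3, a potassium channel subunit, stood at 518 CPM against 34.3 CPM, Cd44 at 116 CPM against 7.29 CPM, and S100a6 at 815 CPM against 12.8 CPM. Pgc, the pepsinogen gene abundant in the other neck-like cells, stood at 11338 CPM against 128419 CPM, and Glp1r at 2.41 CPM against 226 CPM. Cftr was seen in 10 of the 14 cells and Kcne3 in 13. The pooled values hide a spread between the libraries: the 5 cells of the first Ep+ library had 60.2 CPM of Cftr, 241 CPM of S100a6, 692 CPM of Kcne3 and 188 CPM of Cd44, and the 9 of the second had 383, 1085, 436 and 81.6 CPM. In each library all 4 genes stood above the level of that library's other neck-like cells.

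The genes whose levels over the 29 library-cluster sums were most like each claudin are given by Pearson's r on log2(CPM + 1), among 4603 genes that reached 50 CPM. The sums share libraries and clusters, so r is a description of how genes follow the clusters. Their totals include Clps, Pla2g1b and Pgc, which lowers the CPM of every other gene in the chief-like clusters together. The part of this in r was not tested. Cldn18 was closest to Pfn1 (0.99), an actin-binding protein gene, and Cdh1 (0.988), which encodes E-cadherin. Cldn3 was closest to Scg3 (0.998), a secretory granule gene of endocrine cells, and Cldn4 to Neurod1 (0.989), an endocrine transcription factor gene. Cldn7 was closest to Lrp11 (0.977), Cldn12 to Dnajc21 (0.954) and Cldn23 to Cgref1 (0.834). For Cldn2 the highest was Usp53 at 0.593.

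The study sorted GFP+ cells to compare label-retaining cells with the epithelium as a whole, and the claudins were compared between the sorts within each cluster that had 20 cells in all 4 libraries. For each library and cluster UMIs were summed, and the sums of all genes were fitted with edgeR's quasi-likelihood method, with Benjamini-Hochberg adjustment and a threshold of 0.05. In neck-like cells 4 of the 7 claudins passed the filter on low counts and 1, Cldn23, was called, where 0.159% of all genes tested were called. No claudin was called in chief-like cluster 1 (4 tested, 0.0887% of all genes called), pit-like cells (3 tested, 0.364%), chief-like cluster 5 (2 tested, 0.309%) or endocrine-like cluster 6 (4 tested, 0.221%). Fold changes are given for claudins that passed the filter and held at least 20 UMIs in the 4 libraries. Cldn2 in neck-like cells, at 0 in both GFP+ libraries, is given without one. Cldn7 in pit-like cells did not pass the filter. It held 15 and 65 UMIs in the Ep+ libraries and 1 and 0 in the GFP+ ones. Neither did Cldn12 in cluster 5 (10 and 18 against 5 and 1 UMIs), nor Cldn2 in pit-like cells, with 21 UMIs in the second Ep+ library.

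**Figure D4:**
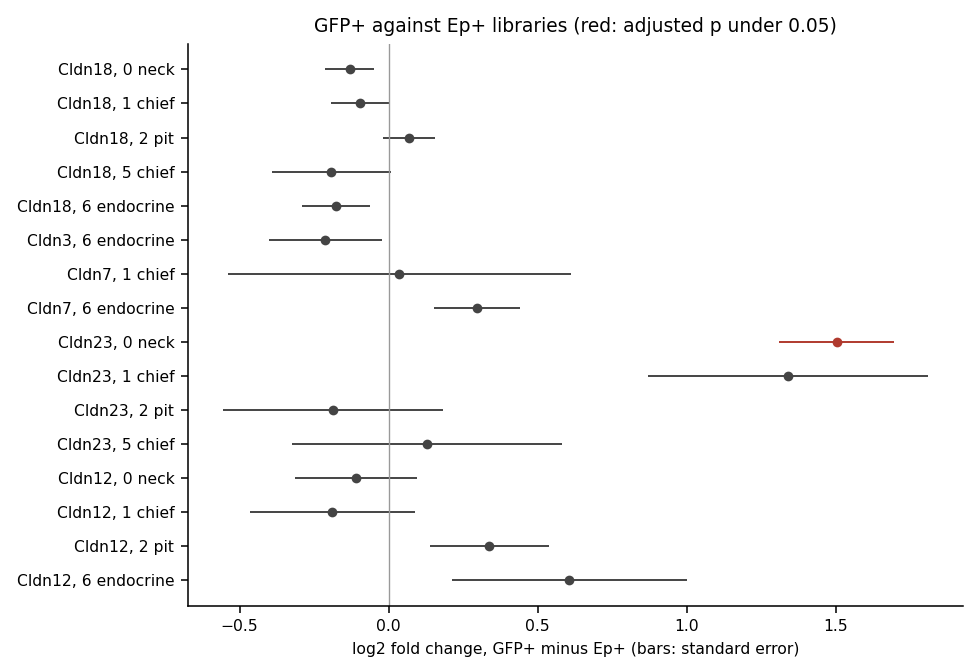
Difference of GFP+ from Ep+ libraries for the claudins that passed the filter with at least 20 UMIs, 1 line for each claudin and cluster. Values are log2 fold changes with bars of 1 standard error from edgeR's quasi-likelihood fit. Cldn2 in neck-like cells, at 0 in both GFP+ libraries, is not drawn. Cldn23 in neck-like cells, at 1.50 with an SE of 0.19 and drawn in red, was the only value called.

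Cldn23 was higher in GFP+ neck-like cells by 1.50 on the log2 scale (SE 0.19, adjusted p = 0.0335 with edgeR's quasi-likelihood test and Benjamini-Hochberg adjustment, 8.28e-07 to 0.168 over the alternatives). Both GFP+ libraries stood above both Ep+ libraries. The call was lost without the second Ep+ library (1.35, adjusted p = 0.168) and when the cell with the most Cldn23 UMIs in each library was left out (1.30, adjusted p = 0.0996). DESeq2 gave 1.49 with no adjusted p.

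In cells, Cldn23 was seen in 57 of 441 (12.9%) and 51 of 496 (10.3%) Ep+ neck-like cells and in 27 of 116 (23.3%) and 21 of 68 (30.9%) GFP+ neck-like cells. Median depths were 24843, 21521, 34587 and 31133 UMIs per cell in that order. Thinned to 16880 UMIs per cell, which left out 56, 72, 14 and 7 shallower cells, the shares were 10.4% (95% Wilson interval 7.72% to 13.8%), 9.20% (6.80% to 12.3%), 11.8% (6.86% to 19.4%) and 24.6% (15.5% to 36.7%). These intervals cover counting error within a library only. At equal depth the share of the first GFP+ library was close to that of the first Ep+ library, and that of the second was higher than in the other 3. The first GFP+ library held 19 of its 76 Cldn23 UMIs in 1 cell, without which its level was 15.3 CPM in place of 20.2 CPM. In each library but the second GFP+ one, at 35.9%, the 5% of cells with the most Cldn23 held 57.9% to 65.3% of its UMIs.

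The summed level of the chief markers in neck-like cells was also higher in both GFP+ libraries, at 217383 and 195085 CPM against 148548 and 131826 CPM. Most of this sum was Pgc, itself abundant in neck-like cells. Pooled over the libraries, Pgc gave 138396 of 154961 CPM there. The pit markers were lower, at 269 and 137 CPM against 586 and 549 CPM. The part of either marker list in the Cldn23 difference was not tested.

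**Figure D5:**
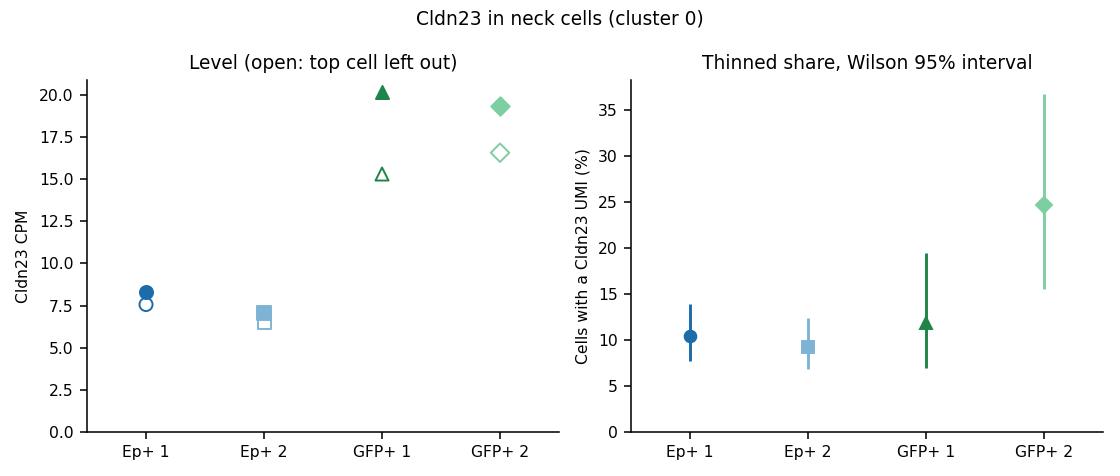
Cldn23 in neck-like cells of the 4 libraries. The left panel gives the level in CPM, with open points for the level without the cell that held the most Cldn23 UMIs, and the right panel gives the share of cells with a UMI in percent after thinning to 16880 UMIs, with 95% Wilson intervals that cover counting error only. The GFP+ libraries, at 20.2 and 19.4 CPM, stood above the Ep+ libraries, while the thinned share of the first GFP+ library was 11.8%.

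In the other clusters Cldn23 gave 1.34 in chief-like cluster 1 (SE 0.47, adjusted p = 0.521 by edgeR's quasi-likelihood test, and called at 0.000818 with no filter on low counts), which fell to 0.40 without the second GFP+ library (2.21 CPM, against 0.871 CPM in the first), −0.19 in pit-like cells (SE 0.37, 0.850) and 0.13 in chief-like cluster 5 (SE 0.45, 0.966). Its sort difference in neck-like cells did not pass the test against that in cluster 1, with a log2 difference of 0.29 (SE 0.46, adjusted p = 0.971, edgeR interaction test, 0.113% of all genes called). The same test gave −1.26 for pit-like cells (SE 0.55, adjusted p = 0.585, 0.286% called) and −0.98 for cluster 5 (SE 0.62, adjusted p = 0.948, 0.0173% called). No claudin was called in any of these tests nor in that of endocrine-like cluster 6 (0.379% called). These tests do not show that the Cldn23 difference was particular to neck-like cells, and the one against cluster 1 gave −0.31 to 1.16 when 1 library at a time was left out.

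Cldn18 moved little. Its log2 fold change was −0.13 in neck-like cells (SE 0.08, adjusted p = 0.593 by edgeR's quasi-likelihood test), where both GFP+ libraries lay below both Ep+ libraries on the CPM scale. It was −0.10 in chief-like cluster 1 (SE 0.10, 0.856), 0.07 in pit-like cells (SE 0.09, 0.746), −0.19 in chief-like cluster 5 (SE 0.20, 0.846) and −0.18 in endocrine-like cluster 6 (SE 0.11, 0.839). On the CPM scale both GFP+ libraries also lay below both Ep+ libraries in clusters 1, 5 and 6, but not in pit-like cells. The fold change in pit-like cells turned to −0.059 with library totals in place of TMM factors.

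Among the endocrine-like cells of cluster 6, Cldn7 gave 0.30 (SE 0.14, adjusted p = 0.726 by edgeR's quasi-likelihood test), with both GFP+ libraries above both Ep+ ones, and Cldn3 gave −0.21 (SE 0.19, 0.881), with both below. Cldn12 gave 0.61 there (SE 0.39, 0.839) and 0.34 in pit-like cells (SE 0.20, 0.451), with both GFP+ libraries above in each on the CPM scale. It gave −0.11 in neck-like cells (SE 0.21, 0.882) and −0.19 in cluster 1 (SE 0.28, 0.916), with both below in each. Cldn7 in cluster 1, where it was near 0, gave 0.04 (SE 0.57, 0.993), and −0.037 with no TMM factors. None of these passed the test. Cldn2 in neck-like cells, at 0 in both GFP+ libraries, had an adjusted p of 0.247 (edgeR, 5.25e-05 to 0.930 over the alternatives), and was called without the second GFP+ library (0.0466) and with the replicate number as a block (5.25e-05).

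The genes that encode the other parts of the junctions were read from the same fits, over a list of 34 genes of which 31 were in the table. Of the 27, 27, 26, 27 and 29 tested in clusters 0, 1, 2, 5 and 6, 0 were called in either direction. Of all genes tested, 0.159%, 0.0887%, 0.364%, 0.309% and 0.221% were called there. At such shares, 0 calls in a list this short say little of the junction genes. The median log2 difference of the junction genes was −0.02, −0.04, 0.12, 0.06 and −0.01, beside medians of 0.01, 0.01, 0.00, 0.00 and 0.00 over all genes tested. At an unadjusted p under 0.05 the same test gave 1292, 809, 1754, 765 and 698 genes over the whole table. Epcam was the most abundant of the list, with a mean of 506 CPM over clusters. Among the clusters that met the level rule, its highest level, 911 CPM, was that of endocrine-like cluster 6, where Cldn7 was also high. Neck-like cells, with only 0.601 CPM of Cldn7, still had 773 CPM of Epcam. Tuft-like cells, too few for that rule, had 1396 CPM of Epcam pooled over libraries. Cldn7 stood at 177 and 253 CPM in the tuft-like cells of the Ep+ libraries. Next to Epcam by its mean over clusters was Cdh1 at 180 CPM, with 276 CPM in pit-like cells. On the CPM scale both, like Cldn18, were lowest in chief-like cluster 1, where Epcam had 35.9 and Cdh1 16.2.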

How the data were processed

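Single-cell RNA-seq of sorted mouse stomach epithelium was analysed in 4 libraries, 2 Ep+ and 2 GFP+, grouped by their titles. The authors deposited raw UMI counts per gene and cell, which Cell Ranger 3.0.2 had made from 10x 3′ reads aligned to mm10. Cells had been filtered by limits on mitochondrial counts and on genes seen, and by any UMI of the blood gene Ptprc or the endothelial gene Pecam1. The deposited table holds 4449 cells with 1504 to 7997 genes each, at most 15.0% mitochondrial UMIs and 0 cells with a Ptprc or Pecam1 UMI. The authors also deposited a cluster number for each cell, made with Seurat. How many components and which resolution went into it is not given in the sources used here. The deposited clusters were used as they are, so doublets were kept and marked with Scrublet in scanpy 1.11.5. Library totals ran from 35571141 to 79455225 UMIs, and the UMIs behind a rare claudin, not the total, set its precision.

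UMI counts were summed per library and cluster. Levels are CPM of sums with at least 20 cells. GFP+ was compared with Ep+ in the 5 clusters with 20 cells in all 4 libraries, with edgeR 4.0.16 in R 4.3.3 (TMM, filterByExpr, glmQLFit and glmQLFTest, two-sided, Benjamini-Hochberg over all genes tested). Differences of the sort effect between clusters were tested as interactions with library as a block. Alternatives were no TMM factors, no filter on low counts, Clps, Pla2g1b and Pgc left out, doublets left out, each library left out, the replicate number as a block and DESeq2 1.42.0. Leaving out shallow cells or the cell with the most UMIs of a claudin, and the minimum of 20 UMIs for a printed fold change, were chosen after seeing the data. The code was tested on simulated data. All 7 claudins are named, other claudins from 5 CPM on, and of a list of junction genes those called and the most abundant. The 7 members, the gene lists and the marker lists were chosen with earlier results of these data known. Sequences and motif searches used RefSeq start windows of GRCm38.p6, which held 6 of the 7 claudins. The study's cell-level Wilcoxon test was not used, since cells are not replicates. Statistics used Python 3.11.15 with numpy 2.4.6, scipy 1.17.1 and pandas 2.3.3.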

Additional observations from a re-analysis of the deposited data

How the results depend on the processing

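Of 238 recomputed fold changes of the claudins, 219 kept their direction and their side of the threshold and 12 turned direction. Another 4 were newly called and 3 were no longer called. A fold change with no adjusted p was counted as not called, which is the case of Cldn23 in cluster 0 with DESeq2. Those that turned were all small or of few UMIs. For Cldn7 in cluster 1 the values were −0.037 with no TMM factors, −0.010 with DESeq2, −0.022 with the replicate block, and −0.91 to 1.02 leaving out 1 library at a time, below 0 without the first Ep+ or the second GFP+ library. For Cldn18 the value was −0.059 in cluster 2 with no TMM factors. Leaving out 1 library at a time, Cldn18 gave −0.21 to 5e-05 in cluster 1 and −0.47 to 0.067 in cluster 5, above 0 without the first GFP+ library. Likewise Cldn23 gave −0.23 to 0.59 in cluster 5, and −0.31 to 1.16 for its difference between clusters 0 and 1, below 0 without the first GFP+ or the first Ep+ library. The cause was not tested. Of 67 recomputed levels, 48 moved by less than the spread between libraries. The lead of cluster 6 passed to cluster 7 with the scaling for Cldn7 and Cldn3, and for Cldn3 also with doublets left out (67.9 CPM) and without the first Ep+ library (61.7 CPM). That of Cldn12 passed between clusters 0, 2, 4 and 8 with the scaling or the library left out.

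The number of genes called moved widely with 2 libraries a group. Leaving out 1 library at a time gave 7 to 275 genes in cluster 0 (18 with all libraries), 13 to 78 in cluster 1 (9), 114 to 156 in cluster 2 (40), 11 to 226 in cluster 5 (28) and 14 to 110 in cluster 6 (22). For the interactions with cluster 1 it gave 10 to 40 in cluster 0 (14), 70 to 160 in cluster 2 (35), 7 to 53 in cluster 5 (2) and 47 to 100 in cluster 6 (48). With no filter on low counts, clusters 1, 2, 5 and 6 gave 236, 639, 178 and 140 genes, and the interactions of clusters 0, 2, 5 and 6 gave 69, 222, 39 and 102. With no TMM factors, clusters 1, 2, 5 and 6 gave 14, 24, 44 and 38 genes, and the interactions of clusters 2 and 5 gave 70 and 0. With Clps, Pla2g1b and Pgc taken out, the interactions of clusters 0, 5 and 6 gave 8, 0 and 29. With doublets left out, clusters 5 and 6 gave 0 and 3 genes, and the interactions of clusters 5 and 6 gave 0 and 22. With cells of low depth left out, the interaction of cluster 5 gave 0. DESeq2 gave 44, 20 and 143 genes in clusters 0, 1 and 2. The cause of these shifts was not tested, beyond the fewer cells or genes that some alternatives hold.

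No source used here says that the replicate numbers pair the libraries, and deviations of same-numbered libraries correlated at 0.26, 0.23, 0.22, −0.03 and 0.20 in clusters 0, 1, 2, 5 and 6. The fit with the replicate block called 665, 412, 222, 18 and 98 genes there. With it Cldn23 was called in cluster 1 (adjusted p = 0.00414, edgeR), as it was with no filter on low counts (0.000818), against 0.521 without either, and Cldn2 was called in cluster 0 (5.25e-05, against 0.247).

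Depth limits the rare claudins. Cldn2 and Cldn4 rest on 164 and 46 UMIs, and clusters 3, 4, 7, 8 and 9 could not be compared between the sorts because a library held fewer than 20 of their cells.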
